A study of Mus musculus with 12 samples.

Results

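Gonadal white adipose tissue (GWAT) of mice that lack HOIP in adipocytes was compared with that of WT littermates after a high-fat diet (HFD), over every annotated gene, in 6 of the 12 bulk RNA sequencing libraries of the series. The members are the 3 HoipA-KO HFD libraries and the 3 WT HFD libraries, named by the labels. All mice were male and carried Hoip fl/fl, so the WT group is floxed as well. HoipA-KO mice also carried AdipoQ.Cre, a recombinase under the adiponectin promoter, which is active in mature adipocytes, and WT mice were Cre-negative littermates. The HFD held 60% fat and was fed for 16 weeks from 6 weeks of age, with tissue taken at 22 to 24 weeks. The control diet (CD) of the other 6 libraries held 14% fat by the labels. Each library holds RNA pooled from 3 mice, because HoipA-KO pads were too small to be used singly, and the WT tissue was pooled in the same way. The spread between libraries is therefore a spread between pools.

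HOIP, encoded by Rnf31, is the catalytic subunit of the linear ubiquitin chain assembly complex (LUBAC), with HOIL-1 (Rbck1) and Sharpin as its partners. LUBAC attaches linear ubiquitin chains to proteins at tumour necrosis factor and other immune receptors. These chains promote nuclear factor kappa B (NF-kB) signalling and hold back caspase-8 and RIPK1-dependent cell death, and the deubiquitinases OTULIN and CYLD remove them. White adipose tissue stores triglyceride in adipocytes, which make up most of its volume. Macrophages, fibroblasts and vessels make up most of the remaining cells, and in obesity macrophages gather around dying adipocytes.

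The 6 libraries held 30513446 to 54874218 estimated counts each. Values are in CPM, a gene's counts over the total of its library after TMM normalization, always in the order replicate 1, 2 and 3. A gene was called where edgeR's quasi-likelihood test gave a Benjamini-Hochberg adjusted p below 0.05 over all genes tested. Across genes, Pearson's r of log CPM was 0.961 to 0.982 between WT libraries, 0.956 to 0.973 between HoipA-KO libraries and 0.911 to 0.956 across the groups. The ribosomal RNA gene that was measured took 0.119% and 0.115% of the counts of HoipA-KO HFD 1 and 3 and 1.01% to 3.63% of those of the other 4 libraries. HoipA-KO HFD 1 stood apart in transcripts of other tissue. Akr1b7 reached 6139 CPM there and at most 0.233 CPM in the other 5 libraries, and Crisp1, a product of the epididymis, 1341 CPM against at most 1.79. The 12 epididymal genes listed, of which 5 were tested, summed to 1656, 0.135 and 170 CPM in HoipA-KO HFD and to 14.2, 2.44 and 0.212 CPM in WT HFD. The 10 pericyte and smooth muscle genes summed to 3925 CPM in HoipA-KO HFD 1 and to 416 to 981 CPM in the other libraries. Akr1b7 (adjusted p = 0.0807) and Crisp1 (adjusted p = 0.0900) were not called.

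Of the 16838 genes tested, 3038 were called (18%), 1050 higher (6.24%) and 1988 lower (11.8%) in HoipA-KO HFD than in WT HFD. The median log2 fold change was 0.86 among the genes called higher and -1.07 among those called lower, against 0.04 over all genes tested. The genes called lower took 37.4%, 33.6% and 28.3% of the counts of the WT libraries and 16.6%, 11.8% and 14.5% of those of the HoipA-KO libraries. Log2 fold changes beyond 1 in size were found for 408 of the genes called higher and for 1070 of those called lower. With libraries scaled by their size alone, 1548 genes were called higher and 1324 lower, so the split between the directions depends on the scaling. The number of calls rested on WT HFD 2 above all. Without it 1 gene was called, although 4617 had an unadjusted p below 0.05, and without WT HFD 1 or HoipA-KO HFD 3 the calls were 683 and 504. Without HoipA-KO HFD 2 they were 1554. HoipA-KO HFD 1 held the most transcripts of other tissue, and without it 855 genes were called higher and 1680 lower. HoipA-KO HFD 3, whose epididymal genes summed to 170 CPM, stayed in that fit. Of all genes tested, 7910 (47.0%) had no overlap between the 2 sets of 3 libraries, 22.4% being higher and 24.5% lower in HoipA-KO HFD, and all 3038 called genes were among them. In each gene list below, no member was called without WT HFD 2. Some of the counts that changed when another library was left out stand beside the main count, but not all such changes are given.

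**Figure D1:**
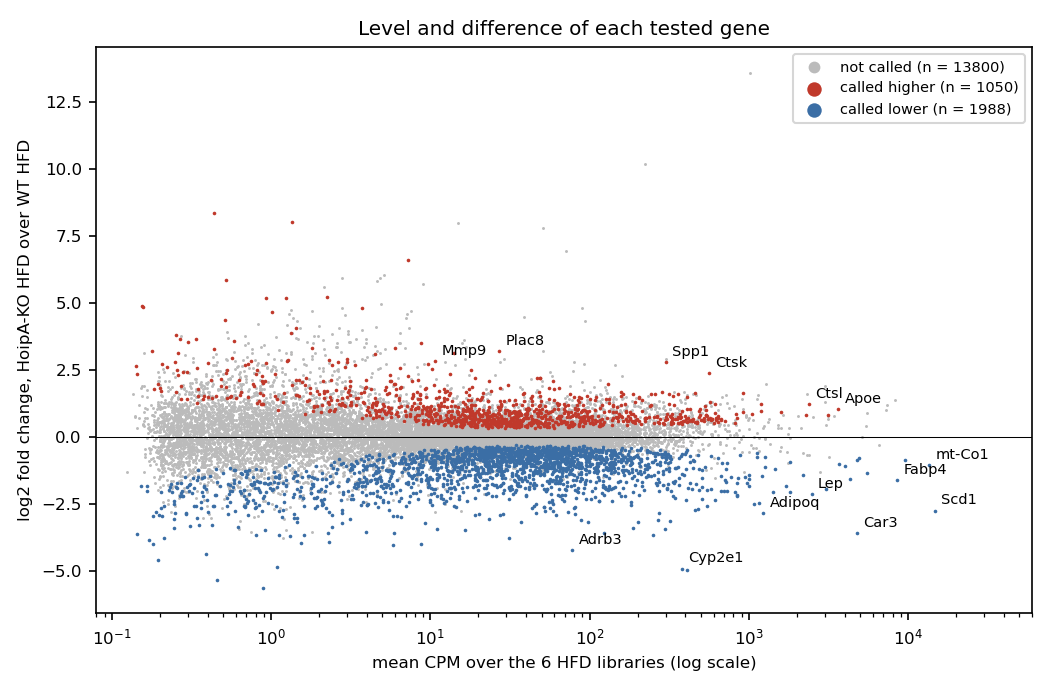
The log2 fold change of each of the 16838 tested genes (HoipA-KO HFD over WT HFD) is plotted against its mean CPM over the 6 HFD libraries on a log scale, with 1050 genes called higher in red, 1988 called lower in blue and the others in grey. Scd1, mt-Co1, Fabp4, Car3 and Lep lie at the abundant end among the genes called lower, and Apoe and Ctsl at that end among the genes called higher.

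Rnf31 itself was at 18.6, 18.3 and 20.3 CPM in WT HFD and 20.5, 19.0 and 22.7 CPM in HoipA-KO HFD (log2 fold change 0.12, adjusted p = 0.429). The libraries overlapped. A count summed over the whole gene in whole tissue cannot show the loss of a floxed exon from 1 cell type, so this level neither checks nor contradicts the labels. Otulin was at 26.1, 26.3 and 29.7 CPM in WT HFD and 36.5, 47.3 and 43.6 CPM in HoipA-KO HFD (log2 fold change 0.63, SE 0.13, adjusted p = 0.0239), and Sharpin at 25.8, 26.0 and 25.9 CPM in WT HFD and 31.8, 36.1 and 38.3 CPM in HoipA-KO HFD (log2 fold change 0.45, SE 0.10, adjusted p = 0.0298). All HoipA-KO libraries were above all WT libraries for both genes. Rbck1 (log2 fold change 0.16, adjusted p = 0.267) and Cyld (log2 fold change -0.27, adjusted p = 0.104) were not called, and neither were Tnfaip3 (0.28), Ripk1 (0.26), Tnfrsf1a (0.13), Spata2 (0.01), Tnip1 (-0.19) and Ikbkg (-0.22), which lie in the same receptor pathway. Of the 11 genes of LUBAC and its regulators, 2 were called higher, with a median of 0.13. The share called higher over all genes tested was 6.24%. Without WT HFD 1, HoipA-KO HFD 2 or HoipA-KO HFD 3 none of the 11 was called.

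Genes of the adipocyte fell. All 10 markers of adipocyte identity were called lower (median -2.04 on the log2 scale), and 7 to 10 were called without any one library other than WT HFD 2. Cfd, the complement serine protease adipsin and an adipocyte product, was at 1121, 887 and 358 CPM in WT HFD and 39.6, 10.1 and 26.8 CPM in HoipA-KO HFD (log2 fold change -4.95, SE 0.68, adjusted p = 0.0107). Adipoq, which encodes adiponectin, was at 2502, 2286 and 1705 CPM in WT HFD and 382, 206 and 327 CPM in HoipA-KO HFD (log2 fold change -2.83, SE 0.29, adjusted p = 0.00877), and Lep, which encodes leptin, at 5382, 3564 and 3160 CPM in WT HFD and 1370, 549 and 855 CPM in HoipA-KO HFD (log2 fold change -2.13, SE 0.39, adjusted p = 0.0199). Each of the 3 was lower in every HoipA-KO library than in every WT library. Fabp4, the fatty acid binding protein of adipocytes, was at 12931, 14714 and 10920 CPM in WT HFD and 4441, 3370 and 4817 CPM in HoipA-KO HFD (log2 fold change -1.61, SE 0.23, adjusted p = 0.0115). Car3, a carbonic anhydrase abundant in adipocytes, was at 11236, 9898 and 5345 CPM in WT HFD and 758, 767 and 686 CPM in HoipA-KO HFD (log2 fold change -3.58, SE 0.32, adjusted p = 0.00762). The 3 HoipA-KO libraries lay close together for Car3, and WT HFD 3 was the lowest of the WT libraries. The transcription factors Pparg (log2 fold change -1.11, adjusted p = 0.0206) and Cebpa (log2 fold change -1.14, adjusted p = 0.00877), which drive and maintain adipocyte differentiation, were called lower as well, with log2 fold changes nearer to 0 than those of the markers above. No adipocyte marker was absent from any library, and the 10 summed to 27237 to 40225 CPM in WT HFD and 6284 to 9011 CPM in HoipA-KO HFD. In bulk tissue fewer adipocytes and less of a transcript in each adipocyte cannot be told apart, here and for every gene below.

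**Figure D2:**
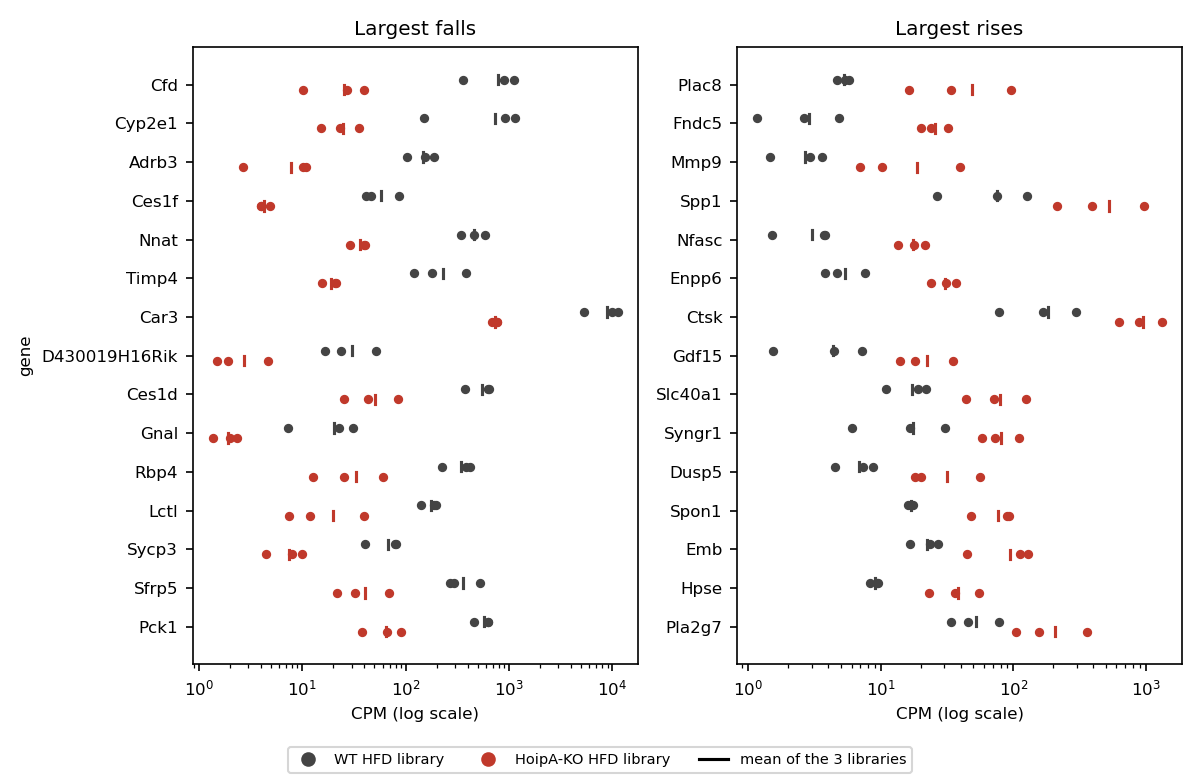
CPM on a log scale of the 15 genes with the largest falls (left) and the 15 with the largest rises (right) among called genes with a mean of at least 10 CPM, with 1 point for each WT HFD library (dark) and HoipA-KO HFD library (red) and a bar at the mean of 3. The points of the 2 groups do not overlap for any of the 30 genes, which the choice of these genes fixed.

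The 15 largest falls ran from a log2 fold change of -4.95 for Cfd to -3.15 for Pck1 among called genes with a mean of at least 10 CPM. Cyp2e1, a cytochrome P450, was at 920, 1140 and 151 CPM in WT HFD and 35.3, 23.2 and 15.2 CPM in HoipA-KO HFD (log2 fold change -4.91, SE 0.81, adjusted p = 0.0160). WT HFD 3 held far less Cyp2e1 than the other WT libraries. The carboxylesterase Ces1d, a triglyceride hydrolase, was at 624, 638 and 376 CPM in WT HFD and 84.8, 25.3 and 43.1 CPM in HoipA-KO HFD (log2 fold change -3.42, SE 0.49, adjusted p = 0.0119), and Ces1f, of the same family, at 46.8, 85.7 and 41.2 CPM in WT HFD and 4.01, 4.83 and 4.03 CPM in HoipA-KO HFD (log2 fold change -3.75, SE 0.32, adjusted p = 0.00762). Ces1 genes are near copies of one another, so reads may have been divided between them. Adrb3, the receptor through which catecholamines start lipolysis in adipocytes, was at 153, 189 and 102 CPM in WT HFD and 10.8, 2.70 and 10.1 CPM in HoipA-KO HFD (log2 fold change -4.23, SE 0.56, adjusted p = 0.0104). Nnat, which encodes the imprinted proteolipid neuronatin, was at 587, 340 and 463 CPM in WT HFD and 40.0, 28.9 and 40.2 CPM in HoipA-KO HFD (log2 fold change -3.67, SE 0.26, adjusted p = 0.00762). Neither gene's groups came near each other. Pck1, the enzyme of glyceroneogenesis, was at 628, 462 and 623 CPM in WT HFD and 65.9, 37.6 and 89.9 CPM in HoipA-KO HFD (log2 fold change -3.15, SE 0.34, adjusted p = 0.00937). The secreted factors Rbp4 (-3.38), Sfrp5 (-3.15) and Timp4 (-3.58) had log2 fold changes in the same range, as did Gnal, Lctl, Sycp3 and D430019H16Rik.

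Lists for storing and using fat fell as well. Of 20 genes of the lipid droplet and lipolysis, 16 were called lower (median -1.57; 8 without HoipA-KO HFD 3 and 10 without WT HFD 1), of 16 genes of de novo lipogenesis 13 (median -1.70; 3 and 5), and of 14 of triglyceride synthesis 12 (median -1.75; 4 and 6). Scd1, the stearoyl-CoA desaturase, was at 32262, 25054 and 19439 CPM in WT HFD and 4922, 2543 and 3955 CPM in HoipA-KO HFD (log2 fold change -2.75, SE 0.34, adjusted p = 0.00965). It lost more CPM than any other called gene, which describes its share of the counts and not its transcript number against other genes. Fasn, fatty acid synthase, was at 1911, 2123 and 1467 CPM in WT HFD and 551, 133 and 290 CPM in HoipA-KO HFD (log2 fold change -2.50, SE 0.51, adjusted p = 0.0249). Its lowest value, in HoipA-KO HFD 2, was well under those of the other HoipA-KO libraries. Dgat2, which makes the last step of triglyceride synthesis, was at 2647, 2460 and 1717 CPM in WT HFD and 738, 257 and 655 CPM in HoipA-KO HFD (log2 fold change -2.05, SE 0.42, adjusted p = 0.0249). The lipases Lipe (log2 fold change -2.03) and Pnpla2 (-1.53), which start lipolysis, and the droplet proteins Plin1 (-2.02) and Cidec (-2.05) were called lower. Plin4 was at 2403, 1946 and 1535 CPM in WT HFD and 463, 196 and 398 CPM in HoipA-KO HFD (log2 fold change -2.48, SE 0.36, adjusted p = 0.0123). Plin2, the droplet protein that many cell types use, was at 638, 1345 and 1566 CPM in WT HFD and 1501, 2735 and 2080 CPM in HoipA-KO HFD (log2 fold change 0.83, SE 0.38, adjusted p = 0.154), and its groups overlapped. The 1 lipogenic gene called higher was Fads1, a desaturase of polyunsaturated fatty acids, at 68.8, 59.8 and 75.1 CPM in WT HFD and 163, 133 and 97.8 CPM in HoipA-KO HFD (log2 fold change 0.95, SE 0.20, adjusted p = 0.0279). Without WT HFD 1 or HoipA-KO HFD 2 it was not called.

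The receptor and insulin lists showed the same direction. Of 15 receptors for catecholamines and metabolites 11 were called lower (median -2.05; 5 without HoipA-KO HFD 3 and 7 without WT HFD 1), among them Npr3, the clearance receptor for natriuretic peptides, at 1685, 1435 and 1043 CPM in WT HFD and 408, 212 and 297 CPM in HoipA-KO HFD (log2 fold change -2.18, SE 0.30, adjusted p = 0.0109). Of 19 genes of insulin signalling and glucose uptake 15 were called lower and 1 higher (median -1.11; 9 lower without HoipA-KO HFD 3). Slc2a4, the insulin-responsive glucose transporter GLUT4, was at 119, 96.3 and 66.4 CPM in WT HFD and 35.9, 22.7 and 27.0 CPM in HoipA-KO HFD (log2 fold change -1.72, SE 0.26, adjusted p = 0.0136). Both Insr (-0.95) and Irs1 (-1.01) were called lower. The 2 AKT kinases of the list went in opposite directions. Akt2, the form that acts in adipocyte glucose uptake, was at 344, 310 and 284 CPM in WT HFD and 166, 139 and 161 CPM in HoipA-KO HFD (log2 fold change -1.01, SE 0.13, adjusted p = 0.0104), whereas Akt1 was at 113, 134 and 166 CPM in WT HFD and 194, 252 and 223 CPM in HoipA-KO HFD (log2 fold change 0.69, SE 0.18, adjusted p = 0.0430). The call of Akt1 was lost without WT HFD 1, HoipA-KO HFD 2 or HoipA-KO HFD 3. The caveolae gene Cav1 was at 3231, 2607 and 2123 CPM in WT HFD and 1014, 519 and 716 CPM in HoipA-KO HFD (log2 fold change -1.82, SE 0.30, adjusted p = 0.0154). Among 14 genes of thermogenesis tested, 3 were called lower, Cidea (-2.79), Ppara (-1.90) and Prdm16 (-0.91), and without WT HFD 1 or HoipA-KO HFD 3 none was, while 1 was without WT HFD 3 or HoipA-KO HFD 2. Ucp1, the uncoupling protein of thermogenic adipocytes, stayed at or below 0.503 CPM in all 6 libraries. Of 19 adipogenic transcription factors 8 were called lower and 1, Gata2, a factor of preadipocytes, higher (log2 fold change 1.06, adjusted p = 0.0424). Without HoipA-KO HFD 3 the numbers were 3 and 0, without WT HFD 1 they were 5 and 0, and Gata2 was not called without WT HFD 3 either.

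**Figure D3:**
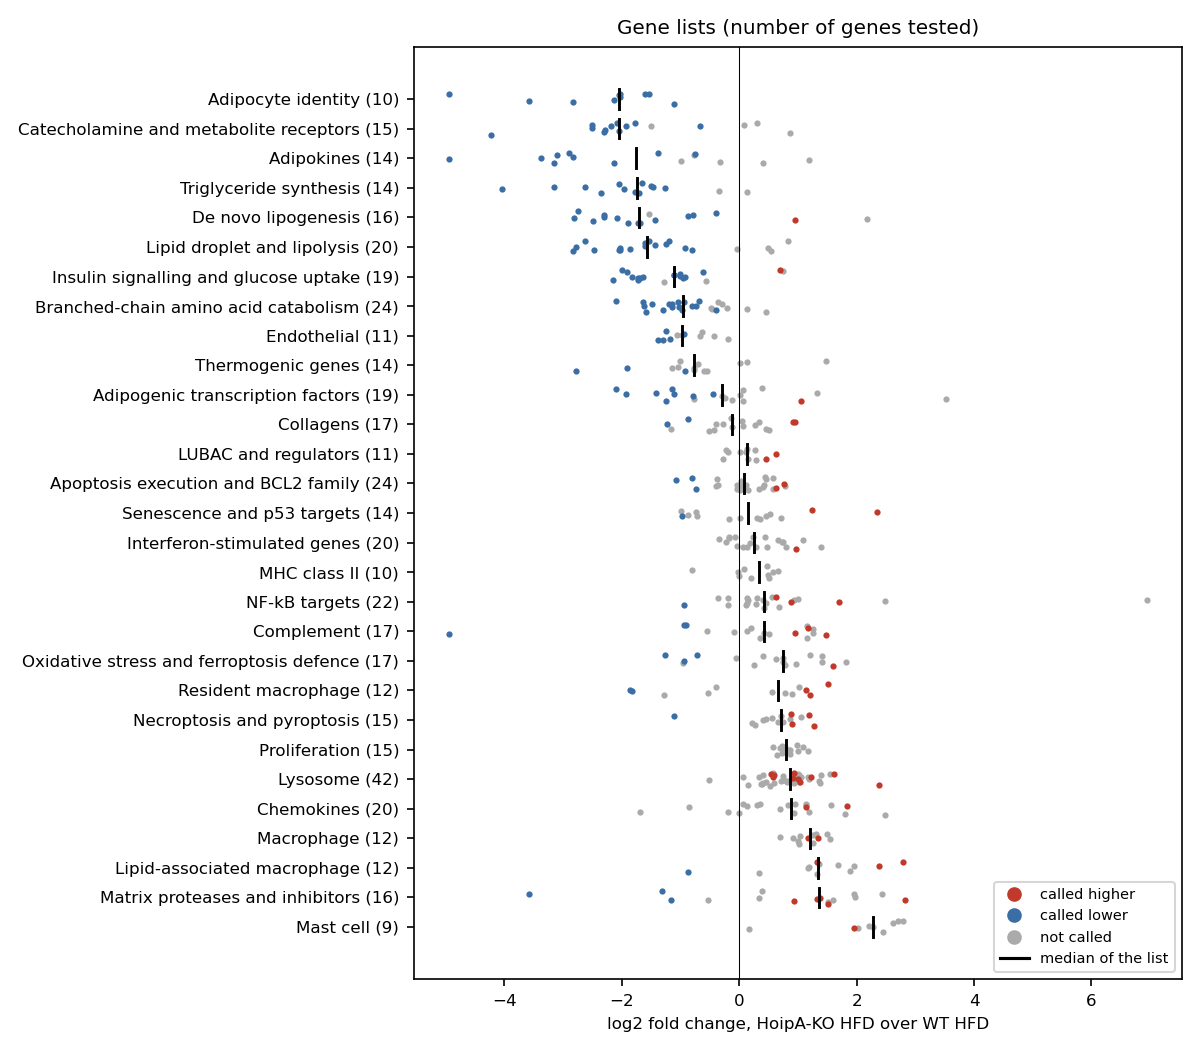
Each point is 1 tested gene of a list, placed by its log2 fold change (HoipA-KO HFD over WT HFD) and coloured by its call, and the black bar is the median of the list, with the number of genes tested in parentheses. Medians run from about -2 for adipocyte identity and for catecholamine and metabolite receptors to 2.28 for mast cell genes, of which 1 of 9 was called.

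Mitochondrial genes did not move alike. Of 13 proteins encoded by the mitochondrial genome, 12 were called lower, with a median of -1.18, while the nuclear-encoded subunits of the same respiratory chain complexes had medians from -0.29 to -0.07. mt-Co1, a catalytic subunit of complex IV, was at 20096, 20109 and 14874 CPM in WT HFD and 10020, 8654 and 7713 CPM in HoipA-KO HFD (log2 fold change -1.06, SE 0.22, adjusted p = 0.0269). mt-Nd2, a subunit of complex I, was at 5212, 5343 and 3940 CPM in WT HFD and 1573, 1136 and 1028 CPM in HoipA-KO HFD (log2 fold change -1.96, SE 0.24, adjusted p = 0.00965). The HoipA-KO libraries were below every WT library for both. mt-Co3 overlapped between the groups and was not called (log2 fold change -0.66, adjusted p = 0.104). The 13 transcripts took 5.84%, 5.69% and 4.17% of the counts of the WT libraries and 2.83%, 2.16% and 2.20% of those of the HoipA-KO libraries. Without HoipA-KO HFD 3, 1 of the 13 was called, without WT HFD 1, 3, and without HoipA-KO HFD 2, 7. Of 36 nuclear-encoded complex I subunits, 3 were called lower, Ndufb3 (-0.93), Ndufab1 (-0.68) and Ndufs1 (-0.50), with a median of -0.21. The count was not above the 11.8% of all genes tested that were called lower. This list had 8 calls without WT HFD 3, 1 without HoipA-KO HFD 1 or HoipA-KO HFD 2 and none without WT HFD 1 or HoipA-KO HFD 3. None of 9 complex III subunits was called by edgeR (median -0.29; 3 lower at an unadjusted p below 0.05 and 1 by DESeq2's Wald test), 1 of 10 complex IV subunits was lower (median -0.07; Cox8a, -0.58), and 1 of 15 complex V subunits was higher (median -0.14). The complex IV call was lost without any one HFD library other than WT HFD 3, and the complex V call without WT HFD 2 or HoipA-KO HFD 3. The complex V gene was Atp5g1, a subunit of the membrane ring of ATP synthase, at 42.0, 50.0 and 48.5 CPM in WT HFD and 75.3, 73.1 and 83.9 CPM in HoipA-KO HFD (log2 fold change 0.73, SE 0.11, adjusted p = 0.0142). The difference between the mitochondrial and nuclear sets was not tested.

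Enzymes of the mitochondrial matrix had medians between those of these sets. Of 24 genes of branched-chain amino acid breakdown 17 were called lower (median -0.96; 9 without HoipA-KO HFD 3 and 10 without WT HFD 1), of 19 of fatty acid oxidation 13 (median -0.61; 6 and 7), and of 24 of pyruvate entry and the tricarboxylic acid (TCA) cycle 15 (median -0.55; 2 and 3). Without HoipA-KO HFD 2 the first and the third list had 11 and 6 calls, and without HoipA-KO HFD 1 the third had 9. Aldh6a1, of valine breakdown, was at 294, 261 and 195 CPM in WT HFD and 72.0, 55.6 and 47.3 CPM in HoipA-KO HFD (log2 fold change -2.10, SE 0.22, adjusted p = 0.00937). Acadm, the medium-chain acyl-CoA dehydrogenase, was at 450, 447 and 410 CPM in WT HFD and 204, 194 and 183 CPM in HoipA-KO HFD (log2 fold change -1.17, SE 0.12, adjusted p = 0.00841). Pcx, the pyruvate carboxylase that supplies oxaloacetate for fatty acid synthesis in adipocytes, was at 674, 792 and 618 CPM in WT HFD and 224, 118 and 196 CPM in HoipA-KO HFD (log2 fold change -1.95, SE 0.26, adjusted p = 0.0104). All HoipA-KO values were below all WT values for the 3 genes, and the log2 fold change of Pcx was the lowest of the TCA list. Citrate synthase, encoded by Cs, had a smaller log2 fold change of -0.71.

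**Figure D4:**
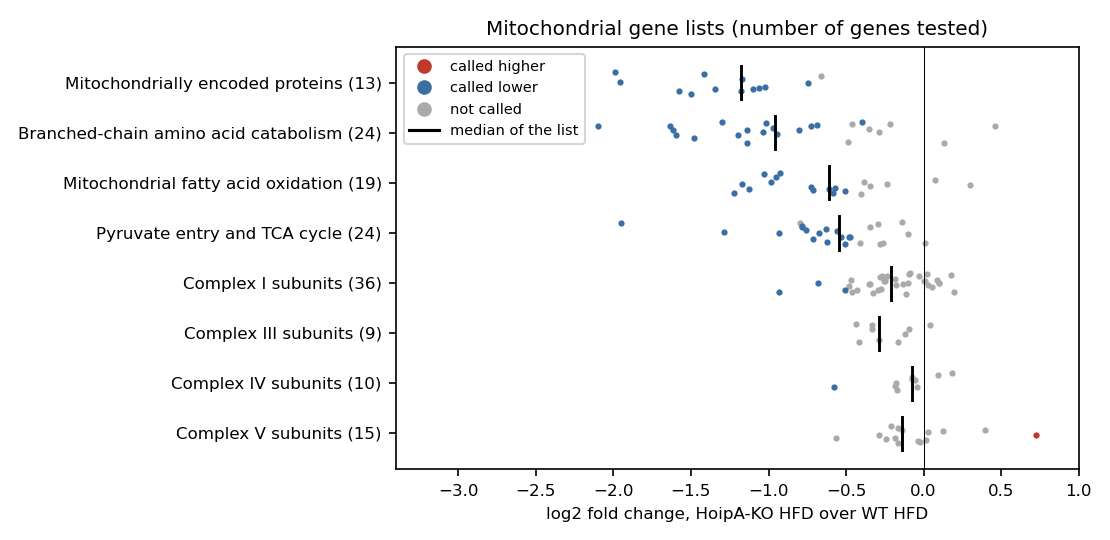
Each point is 1 gene of a mitochondrial list by its log2 fold change (HoipA-KO HFD over WT HFD), coloured by its call, with a black bar at the median of the list. The medians rise from -1.18 for proteins encoded in the mitochondrial genome to -0.07 for nuclear-encoded complex IV subunits.

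Genes called higher included lysosomal and matrix-degrading enzymes and secreted proteins of macrophages. The 15 largest rises ran from a log2 fold change of 3.21 for Plac8 to 1.98 for Pla2g7 among called genes with a mean of at least 10 CPM. Plac8, which monocytes express, was at 4.63, 5.78 and 5.34 CPM in WT HFD and 95.9, 16.4 and 33.5 CPM in HoipA-KO HFD (log2 fold change 3.21, SE 0.64, adjusted p = 0.0244). Of the 8 monocyte genes listed 2 were called higher, against 6.24% over all genes tested. Their median was 0.33, with 5 estimates above 0 and 3 below, and without WT HFD 1 or HoipA-KO HFD 3 none was called. Fndc5, the precursor of irisin, was at 1.17, 2.61 and 4.83 CPM in WT HFD and 23.8, 20.1 and 32.3 CPM in HoipA-KO HFD (log2 fold change 3.13, SE 0.49, adjusted p = 0.0145). HoipA-KO HFD 1 held the most Plac8, and the 3 HoipA-KO libraries were closer together for Fndc5. Spp1, which encodes osteopontin, was at 26.4, 75.0 and 126 CPM in WT HFD and 975, 390 and 215 CPM in HoipA-KO HFD (log2 fold change 2.79, SE 0.75, adjusted p = 0.0472), and Gdf15, a cytokine of cell stress, at 1.53, 4.39 and 7.14 CPM in WT HFD and 18.2, 34.8 and 13.9 CPM in HoipA-KO HFD (log2 fold change 2.34, SE 0.59, adjusted p = 0.0405). Slc40a1, the iron exporter ferroportin, was at 10.97, 19.0 and 21.8 CPM in WT HFD and 70.8, 125 and 44.2 CPM in HoipA-KO HFD (log2 fold change 2.21, SE 0.43, adjusted p = 0.0231). The values of Spp1 spread more than 4-fold within each group. Spon1, a secreted matrix protein, was at 17.5, 17.0 and 16.0 CPM in WT HFD and 89.8, 92.6 and 47.6 CPM in HoipA-KO HFD (log2 fold change 2.19, SE 0.26, adjusted p = 0.00965), and Hpse, the heparan sulfate endoglycosidase, at 9.27, 9.49 and 8.31 CPM in WT HFD and 36.1, 54.6 and 23.0 CPM in HoipA-KO HFD (log2 fold change 2.07, SE 0.31, adjusted p = 0.0129). Both were nearly level across the WT libraries. Mmp9, Nfasc, Enpp6, Syngr1, Dusp5 and Emb, with log2 fold changes from 2.09 to 2.83, and Ctsk complete the list. Apoe, the apolipoprotein that macrophages and adipocytes secrete, gained the most CPM of the genes called, at 2173, 2408 and 2625 CPM in WT HFD and 5287, 4192 and 5207 CPM in HoipA-KO HFD (log2 fold change 1.03, SE 0.18, adjusted p = 0.0180). Actb (0.81) and Tpt1 (0.82) were among the next.

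Of 42 lysosomal genes, 10 were called higher and 0 lower, with a median of 0.86, and 41 had an estimate above 0. Ctsl, a cysteine cathepsin, was at 1109, 1443 and 1728 CPM in WT HFD and 3097, 4121 and 2764 CPM in HoipA-KO HFD (log2 fold change 1.22, SE 0.24, adjusted p = 0.0241). Lgmn, the asparaginyl endopeptidase legumain, was at 232, 449 and 677 CPM in WT HFD and 1150, 1640 and 1395 CPM in HoipA-KO HFD (log2 fold change 1.62, SE 0.39, adjusted p = 0.0358), and Ctsk, the collagen-degrading cathepsin K, at 78.2, 168 and 297 CPM in WT HFD and 630, 1319 and 895 CPM in HoipA-KO HFD (log2 fold change 2.39, SE 0.52, adjusted p = 0.0296). Each was higher in every HoipA-KO library, and each was lowest in WT HFD 1. Tfeb, a transcription factor of lysosomal genes, was at 18.7, 24.1 and 28.7 CPM in WT HFD and 37.4, 51.2 and 47.5 CPM in HoipA-KO HFD (log2 fold change 0.93, SE 0.19, adjusted p = 0.0258). Psap (log2 fold change 1.38, adjusted p = 0.0626), Ctsb (log2 fold change 1.00, adjusted p = 0.0879) and Ctsd (log2 fold change 0.90, adjusted p = 0.130) were not called. Without WT HFD 3 the list had 21 calls, without HoipA-KO HFD 2 it had 1, and without WT HFD 1 or HoipA-KO HFD 3 it had none. Macrophage markers moved with these genes. The 12 summed to 2132, 3883 and 6359 CPM in WT HFD and 8160, 12101 and 9043 CPM in HoipA-KO HFD, and none was at 0. All 12 had estimates above 0 (median 1.21), with 2 called, Aif1 (log2 fold change 1.33, adjusted p = 0.0310) and C1qa (log2 fold change 1.17, adjusted p = 0.0435). Lyz2 (log2 fold change 1.30, adjusted p = 0.0789) and Cd68 (log2 fold change 1.55, adjusted p = 0.0784) were not called. Without WT HFD 3, 9 of the 12 were called, without either of HoipA-KO HFD 1 and 2 1 was, and without WT HFD 1 or HoipA-KO HFD 3 none was. The part of these markers in the lysosomal result was not tested.

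**Figure D5:**
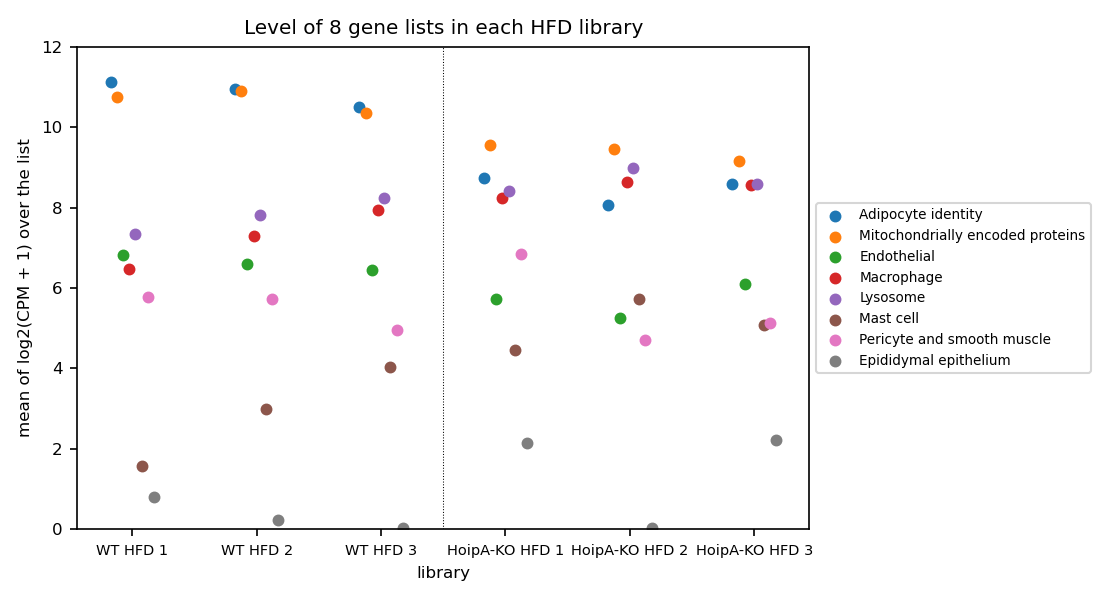
The mean of log2(CPM + 1) over the genes of 8 lists is plotted for each of the 6 HFD libraries, WT HFD on the left of the dotted line and HoipA-KO HFD on the right. Adipocyte identity was at 10.5 to 11.1 in WT HFD and 8.07 to 8.75 in HoipA-KO HFD, macrophage genes were at 6.47 to 7.94 and 8.24 to 8.64, and pericyte and smooth muscle genes were highest in HoipA-KO HFD 1.

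The 5 promoters below are windows from 250 bases before to 50 after a gene's start, from RefSeq on GRCm38.p6, and 12174 of the genes tested had such an entry. They were searched on both strands for 6 sets of letters, namely TCAAGGTCA (estrogen-related receptors), GGTCAAAGG (peroxisome proliferator-activated receptors), GAGGAAGT (PU.1, the myeloid factor), GTCACGTG (TFEB and TFE3), GGGACTTTC (NF-kB) and TTGCGCAA (C/EBP factors, the same on both strands). No 2 of these share a site here. Cfd, at chr10:79890603-79890902 on the plus strand, is printed as the largest fall among called genes with a mean of at least 10 CPM. It holds none of the 6. Among the same genes, the windows of Cyp2e1, the next largest fall, and of Plac8 and Fndc5, the 2 largest rises, hold none either. The other 4 are members of the lists above that were picked because they hold a match, so the matches are descriptions and not sites of binding. Capitals mark the match. Lgmn, at chr12:102439043-102439342 on the minus strand, holds GTCACGTG from 51 bases before the start, a match found in 2.26% of the 32544 promoters. Spp1, at chr5:104434861-104435160 on the plus strand, holds GAGGAAGT from 113 bases before the start (3.11% of promoters). Lep, at chr6:29059971-29060270 on the plus strand, holds TTGCGCAA from 55 bases before the start (0.184% of promoters). Aldh6a1, at chr12:84450975-84451274 on the minus strand, holds GGTCAAAGG on the opposite strand from 111 bases before the start (0.347% of promoters).
Cfd: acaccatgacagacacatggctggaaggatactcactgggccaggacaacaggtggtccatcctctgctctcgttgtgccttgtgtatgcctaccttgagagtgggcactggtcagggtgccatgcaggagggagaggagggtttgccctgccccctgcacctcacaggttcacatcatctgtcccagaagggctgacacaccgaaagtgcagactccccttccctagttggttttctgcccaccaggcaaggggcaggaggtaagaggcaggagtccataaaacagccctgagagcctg
Lgmn: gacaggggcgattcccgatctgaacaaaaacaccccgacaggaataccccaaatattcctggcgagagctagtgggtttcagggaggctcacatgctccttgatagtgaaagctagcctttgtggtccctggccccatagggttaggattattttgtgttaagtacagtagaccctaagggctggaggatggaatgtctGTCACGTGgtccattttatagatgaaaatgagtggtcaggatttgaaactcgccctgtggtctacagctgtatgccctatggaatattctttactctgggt
Spp1: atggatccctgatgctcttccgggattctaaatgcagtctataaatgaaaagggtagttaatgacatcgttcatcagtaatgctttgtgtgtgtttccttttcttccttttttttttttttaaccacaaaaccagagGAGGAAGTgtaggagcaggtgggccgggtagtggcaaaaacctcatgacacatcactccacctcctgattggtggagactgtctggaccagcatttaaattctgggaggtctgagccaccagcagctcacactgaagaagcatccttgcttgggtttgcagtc
Lep: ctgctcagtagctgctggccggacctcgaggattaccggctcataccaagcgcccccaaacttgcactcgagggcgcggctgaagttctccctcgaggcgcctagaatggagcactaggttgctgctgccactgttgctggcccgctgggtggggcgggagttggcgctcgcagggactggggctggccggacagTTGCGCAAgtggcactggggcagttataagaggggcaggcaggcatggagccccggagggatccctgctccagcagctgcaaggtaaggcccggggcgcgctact
Aldh6a1: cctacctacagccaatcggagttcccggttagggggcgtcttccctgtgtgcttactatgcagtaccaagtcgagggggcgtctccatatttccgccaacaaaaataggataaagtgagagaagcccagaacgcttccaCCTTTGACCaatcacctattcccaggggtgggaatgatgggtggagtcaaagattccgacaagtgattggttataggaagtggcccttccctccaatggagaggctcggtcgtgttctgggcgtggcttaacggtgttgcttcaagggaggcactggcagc

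Macrophage genes did not all go one way. Of 12 markers of lipid-associated macrophages 3 were called higher, Cd63, Ctsk and Spp1, and 1 lower, Lpl, the lipoprotein lipase that adipocytes also express, at 12142, 13136 and 11740 CPM in WT HFD and 5750, 7159 and 7349 CPM in HoipA-KO HFD (log2 fold change -0.87, SE 0.19, adjusted p = 0.0294). The other 11 markers of lipid-associated macrophages had estimates above 0, and the median of the list was 1.35. Trem2 (log2 fold change 1.68, adjusted p = 0.0699) and Gpnmb (log2 fold change 1.89, adjusted p = 0.112), defining genes of these cells, were not called. Without WT HFD 1, HoipA-KO HFD 2 or HoipA-KO HFD 3 none of the 12 was called higher, and without WT HFD 3, 6 were. The call of Lpl was lost without WT HFD 1, HoipA-KO HFD 1 or HoipA-KO HFD 3. Of 12 markers of resident macrophages, 3 were called higher and 2 lower. The shares over all genes tested were 6.24% higher and 11.8% lower. Vsig4, a complement receptor, was at 6.97, 6.61 and 4.13 CPM in WT HFD and 15.8, 14.4 and 20.0 CPM in HoipA-KO HFD (log2 fold change 1.51, SE 0.24, adjusted p = 0.0150), while Cd163, the haemoglobin scavenger receptor, was at 51.8, 56.6 and 42.3 CPM in WT HFD and 15.0, 13.4 and 14.3 CPM in HoipA-KO HFD (log2 fold change -1.82, SE 0.13, adjusted p = 0.00762). Neither gene's libraries overlapped, and the HoipA-KO libraries lay within 13.4 to 15.0 CPM for Cd163. Pf4 (1.21) and Clec10a (1.14) were called higher and Timd4 (-1.85), at most 2.23 CPM, lower. Without HoipA-KO HFD 3 or WT HFD 1 the counts of this list were 0 and 1 higher. Without WT HFD 3, 5 were lower, and without any of the other HFD libraries but WT HFD 2, 1 was. Of 9 mast cell genes all had estimates above 0 (median 2.28), and 1 was called, Hdc, which makes histamine, at 4.90, 3.83 and 4.28 CPM in WT HFD and 11.5, 20.1 and 18.6 CPM in HoipA-KO HFD (log2 fold change 1.95, SE 0.24, adjusted p = 0.00965). With WT HFD 3 left out, 6 of the 9 were called. The 15 proliferation genes had estimates from 0.57 to 1.18 (median 0.79) with 0 called by edgeR's test, although 7 had an unadjusted p below 0.05. Without WT HFD 3, 4 were called, without HoipA-KO HFD 1, 1 was, and DESeq2's Wald test called 6.

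Extracellular matrix genes were called in both directions. Over all genes tested, 6.24% were called higher and 11.8% lower. Of 16 matrix proteases and their inhibitors, 5 were called higher and 3 lower. Mmp2, a gelatinase, was at 89.8, 178 and 253 CPM in WT HFD and 426, 544 and 516 CPM in HoipA-KO HFD (log2 fold change 1.51, SE 0.36, adjusted p = 0.0361), and Mmp14, the membrane protease that activates it, at 69.6, 119 and 165 CPM in WT HFD and 284, 318 and 321 CPM in HoipA-KO HFD (log2 fold change 1.38, SE 0.30, adjusted p = 0.0294). Mmp9, Timp1 (1.33) and Timp2 (0.94) were the others called higher, and Timp3 (-1.16), Timp4 and Adamts5 (-1.32) were called lower. Timp4 was at 386, 179 and 121 CPM in WT HFD and 21.0, 15.6 and 20.6 CPM in HoipA-KO HFD (log2 fold change -3.58, SE 0.46, adjusted p = 0.00974). The 4 tissue inhibitors thus fell into 2 higher and 2 lower. Without HoipA-KO HFD 2 or HoipA-KO HFD 3 no member was called higher, and without HoipA-KO HFD 3 1 was called lower. Of 17 collagen genes, Col1a1 (0.96) and Col1a2, the chains of type I collagen, were called higher, and Col5a3 (-0.86) and Col14a1 (-1.22) lower. These collagen counts were not far from the shares over all genes tested, and the list's median was -0.12. Col1a2 was at 812, 1082 and 1399 CPM in WT HFD and 2353, 2025 and 1860 CPM in HoipA-KO HFD (log2 fold change 0.92, SE 0.23, adjusted p = 0.0412). Col3a1 was not called (log2 fold change 0.45, adjusted p = 0.317), and with any one library left out other than WT HFD 3 no collagen was called higher. Without HoipA-KO HFD 3 none was called lower either, and 1 was without WT HFD 1 or HoipA-KO HFD 2.

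Genes near the known role of LUBAC gave mixed counts. Over all genes tested, the shares called higher and lower were 6.24% and 11.8%. Of 15 genes of necroptosis and pyroptosis, 4 were called higher, Gsdmd, Ripk3 (0.91), Pycard (1.18) and Ninj1 (1.28), and 1 lower, Gsdme (-1.10). The median of this list was 0.72, with 14 estimates above 0 and 1 below. Gsdmd, the pore protein of pyroptosis, was at 20.2, 23.1 and 28.6 CPM in WT HFD and 38.8, 42.6 and 51.0 CPM in HoipA-KO HFD (log2 fold change 0.88, SE 0.17, adjusted p = 0.0215). Its relative Gsdme was at 16.6, 16.9 and 14.0 CPM in WT HFD and 8.52, 5.19 and 8.41 CPM in HoipA-KO HFD (log2 fold change -1.10, SE 0.22, adjusted p = 0.0239). Of 24 genes of apoptosis 2 were called higher, Bax (0.76) and Tradd (0.62), and 3 lower, Fas (-1.08), Bcl2 (-0.73) and Cycs (-0.80), with a median of 0.09. Both counts were near the shares over all genes tested, and the median was near the 0.04 of those genes. Of 22 NF-kB targets 3 were called higher, Icam1 (0.88), Bcl2a1b (1.69) and Nfkbie (0.63), and 1 lower, Sod2 (-0.94), with a median of 0.42. Bcl2a1b belongs to a family of near-identical copies, so its reads are uncertain. Without HoipA-KO HFD 3 no member of these 3 lists was called in either direction. Without WT HFD 1 the only calls in them were 2 NF-kB targets called higher, and without HoipA-KO HFD 2 the apoptosis list had 1 call, which was lower, and Sod2 was not called. With WT HFD 3 left out, 4 apoptosis genes were called higher. The macrophage markers summed above were also higher in HoipA-KO HFD. Their part in the counts of these lists and of the matrix genes was not tested. Of 20 chemokines 2 were called higher, Cxcl16 (1.14) and Ccl3 (1.84). The chemokine median was 0.88, with 17 estimates above 0 and 3 below. By edgeR's test 10 chemokines were higher at an unadjusted p below 0.05 and 0 lower. Of 20 interferon-stimulated genes 1 was called higher, Oasl2 (0.97). Of 10 genes of MHC class II none was called by edgeR or by DESeq2's Wald test, with 1 lower at an unadjusted p below 0.05. Of 17 complement genes, C1qa, C1ra (0.96) and Cfp (1.47) were called higher, and Cfd, Cfb (-0.94) and Cd55 (-0.90) lower, so that members of the alternative pathway stood on both sides. Without WT HFD 3 the complement list had 6 genes called higher, without HoipA-KO HFD 3 it had 1 higher and 0 lower, and without WT HFD 1 it had 1 lower. The chemokine and interferon lists had no calls without WT HFD 1 or HoipA-KO HFD 3, and the latter had none without HoipA-KO HFD 1. They had 4 and 3 without WT HFD 3, and without HoipA-KO HFD 2 they had 1 and 5.

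Of 11 endothelial markers, 5 were called lower and 0 higher, with a median of -0.98 and all 11 estimates below 0. Cdh5, which encodes VE-cadherin, was at 319, 273 and 289 CPM in WT HFD and 128, 86.9 and 156 CPM in HoipA-KO HFD (log2 fold change -1.25, SE 0.22, adjusted p = 0.0188), and Kdr, a receptor of vascular endothelial growth factor, at 126, 136 and 112 CPM in WT HFD and 52.3, 41.7 and 59.1 CPM in HoipA-KO HFD (log2 fold change -1.29, SE 0.16, adjusted p = 0.00965). Flt1 (-1.38), Gpihbp1 (-1.19) and Tek (-0.94) were the others, and the HoipA-KO libraries were below all WT libraries for the 5 genes. The 11 markers summed to 1232 to 1534 CPM in WT HFD and to 716, 514 and 918 CPM in HoipA-KO HFD. Without WT HFD 1, 2 of them were called, and without HoipA-KO HFD 1 or HoipA-KO HFD 2, 3 were.

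Among 2118 tested genes that are not annotated as protein-coding, 56 were called higher and 177 lower. Both are smaller shares than the 6.24% and 11.8% over all genes tested. Gm11868, a processed pseudogene whose reads can be shared with its parent gene, was at 0.100, 0.309 and 0.318 CPM in WT HFD and 5.52, 9.40 and 6.58 CPM in HoipA-KO HFD (log2 fold change 4.82, SE 0.46, adjusted p = 0.00817). Mexis, a long noncoding RNA that acts with liver X receptors on cholesterol efflux, was at 1.20, 3.40 and 3.54 CPM in WT HFD and 11.7, 6.30 and 10.3 CPM in HoipA-KO HFD (log2 fold change 1.78, SE 0.45, adjusted p = 0.0401). Gm14461 (2.21), 3300005D01Rik (1.96) and Gm42031 (1.82) were the other 3 of the 5 largest rises with a mean of at least 1 CPM. The 5 largest falls were Gm15519 (-4.01), Gm45470 (-3.97), Gm36827 (-3.67), Gm454 (-3.55) and Gm40617 (-3.15).

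The genotype difference on HFD was set beside that on CD in 1 fit of 11 libraries, without WT CD 3. The deposited tables of comparisons leave that library out as well. The CD values below are normalized over these 11 libraries. The interaction of genotype and diet was called for 721 of 18427 genes (3.91%), 61 with a positive and 660 with a negative estimate. For 588 of the 721 genes the difference had the same sign on both diets and was smaller in size on HFD. Of the 3038 genes called on HFD, 139 had an interaction call. Ctsk was at 23.2 and 14.3 CPM in WT CD and at 881, 1207 and 979 CPM in HoipA-KO CD, so that the HoipA-KO libraries on both diets covered a similar range while the WT libraries were higher on HFD. Sycp3, which encodes a protein of the meiotic synaptonemal complex, was at 6.98 and 7.98 CPM in WT CD, 7.70, 9.41 and 7.56 CPM in HoipA-KO CD, 80.9, 79.5 and 40.8 CPM in WT HFD and 10.0, 4.45 and 7.99 CPM in HoipA-KO HFD. Gnal, a G protein alpha subunit, was at 2.19 and 2.01 CPM in WT CD, 2.58, 4.48 and 1.74 CPM in HoipA-KO CD, 7.30, 30.8 and 22.6 CPM in WT HFD and 2.32, 1.37 and 1.99 CPM in HoipA-KO HFD (log2 fold change -3.41, SE 0.55, adjusted p = 0.0150). For Sycp3 and Gnal the 3 WT HFD libraries were above all other libraries. The number of interaction calls was 1 to 4 without any one of WT CD 2, WT HFD 2, HoipA-KO CD 1, 2 or 3, HoipA-KO HFD 1 or HoipA-KO HFD 3, and was 226 without WT HFD 3. Leaving out WT CD 1 gave 3668 calls. Without WT CD 1 or WT CD 2 the WT CD group is 1 library, which the fit assumes to vary like the other groups, and WT CD 2 is the library with Crisp1 at 12261 CPM.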

How the data were processed

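RNA was sequenced as stranded, poly(A)-selected libraries of GWAT, 3 pools of mice in each of 4 groups. The authors trimmed reads with Trim Galore 0.6.7, aligned them with STAR 2.7.10a and deposited estimated counts per gene from Salmon 1.5.2, without normalization, for 55281 annotated genes and for 21646 protein-coding genes. The labels name GRCm38 and the methods a human build, and 52000 of the identifiers matched GENCODE M21, so no gene positions are given apart from the RefSeq promoter windows. The authors' DESeq2 tables (CPM, fold changes and p-values) were not used.

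Estimated counts were rounded, filtered by filterByExpr, normalized by TMM and fitted over the 6 HFD libraries with edgeR 4.0.16 in R 4.3.3, without a block, as glmQLFit and glmQLFTest. The prior count was 0.125 and adjusted p values follow Benjamini and Hochberg over all genes tested. An SE is the log2 fold change divided by the square root of the F statistic. The script was tested on simulated data. Interactions used 11 libraries of 4 groups. DESeq2 1.42.0 gave the alternative test.

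The members and the 53 gene lists (745 genes, 716 tested) were chosen with earlier results of these data known. Named genes are the 15 largest rises and falls among called genes with a mean of at least 10 CPM and no overlap, the 5 largest gains and losses in CPM, the 5 largest noncoding rises and falls with at least 1 CPM, all LUBAC genes, the 3 largest interactions in each direction, and in each list up to 4 members of highest CPM plus the largest change called. The other genes named, such as members of counts of 5 or fewer, Akr1b7, Cd163, Tfeb and Lgmn, were chosen after their values were seen.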

Additional observations from a re-analysis of the deposited data

Results flagged for a closer look

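In the fit of 11 libraries, 721 genes had a genotype difference that differed between HFD and CD by edgeR's test of the interaction. The estimates below are the log2 genotype difference on HFD minus that on CD, with adjusted p values by edgeR's quasi-likelihood test, and rest on 2 WT CD libraries. Sycp3 (-3.30, adjusted p = 0.0256) and Gnal (-3.90, adjusted p = 0.0320) had log2 genotype differences of -3.16 and -3.41 on HFD and of 0.14 and 0.49 on CD. Col14a1 (-2.09, adjusted p = 0.0281) was at -1.22 on HFD and 0.87 on CD, and Itgad (-6.12, adjusted p = 0.0281), an integrin subunit of macrophages, at -1.20 and 4.92. Itgad was at 5.64, 24.8 and 48.2 CPM in WT HFD and 15.5, 12.7 and 6.05 CPM in HoipA-KO HFD, so its HFD groups overlapped.

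Most of the other negative estimates belonged to genes with a higher fitted level in HoipA-KO on both diets. Those of macrophages were Gpnmb (-6.01), Trem2 (-4.50), Cd68 (-4.29), Ccl3 (-4.25), Lyz2 (-3.21), Ctsk (-3.36), Bcl2a1b (-2.95) and Cfp (-1.50), with adjusted p values from 0.0256 to 0.0478. For Gpnmb the log2 genotype difference was 7.92 on CD and 1.91 on HFD, and for Ctsk 5.77 and 2.40. Those of the matrix were Timp1 (-3.50), Hpse (-2.42), Col1a1 (-1.91), Col1a2 (-1.67) and Timp2 (-1.53). Ripk3 (-1.47), Nfkbie (-1.18) and Icam1 (-1.04) and the noncoding Gm14461 (-5.64) were called as well, as was Tnip1 (-0.83), at 0.65 on CD and -0.19 on HFD. The 2 most negative estimates among genes with a mean of at least 10 CPM beside that of Itgad were those of Tm4sf19 (-7.03), at 0.0475 and 0.211 CPM in WT CD and 19.6 to 57.4 CPM in HoipA-KO CD, and of Hmga2 (-6.15).

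The 3 largest positive estimates were those of Crisp1 (27.59), Wfdc15b (20.03) and Gpx3 (3.85). Crisp1 reached 12261 CPM in WT CD 2 and 1276 CPM in HoipA-KO HFD 1 and stayed at or below 1.77 CPM in the other 9 libraries of this fit, and Wfdc15b reached 716 and 20.0 CPM in the same 2 libraries. Gpx3, the extracellular glutathione peroxidase, was at 1318 and 5883 CPM in WT CD, 658, 292 and 796 CPM in HoipA-KO CD, 363, 353 and 369 CPM in WT HFD and 854, 692 and 987 CPM in HoipA-KO HFD. Its values were lower in HoipA-KO on CD and higher in HoipA-KO on HFD. The 5883 CPM was in WT CD 2, the library with the most Crisp1 and Wfdc15b. The part of other tissue in the Gpx3 estimate was not tested.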

How the results depend on the processing

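The numbers of genes called higher and lower on HFD were 1050 and 1988. They stayed within 1.5 times of this with DESeq2 size factors, without a filter, with at least 10 counts in every library, in the protein-coding table and with 11 libraries, as did the number called higher with library sizes alone (1548), where those called lower fell to 1324. With all 12 libraries the numbers were 96 and 407, and at an adjusted p below 0.01 they were 21 and 246. DESeq2's Wald test called 2516 higher and 2786 lower. Leaving out 1 HFD library gave 0 to 1270 higher and 1 to 1907 lower, and 675 of the calls were shared with the main ones without WT HFD 1, 1 without WT HFD 2 and 491 without HoipA-KO HFD 3. Of the 721 interaction calls, leaving out 1 library gave 1 to 3668, DESeq2's Wald test 2374 and the replicate block 377. Both ends of that range include a fit with 1 WT CD library (3668 without WT CD 1 and 1 without WT CD 2), which is then assumed to vary like the other groups, and the fit without HoipA-KO HFD 3 also gave 1. The cause of these changes was not tested. Replicate numbers did not pair the libraries, with correlations of the deviations of same-numbered libraries of 0.43, 0.062 and 0.026, and the replicate block gave 1287 genes higher and 1812 lower on HFD, with 2434 of the calls shared. Among the named genes the Spata2 log2 fold change, which was not called, ran from -0.0401 to 0.0649 when 1 library was left out. No other reversed, which the lack of overlap between the groups fixes for the called ones. Calls of single genes were less stable. Among the named genes checked, 130 lost their call without WT HFD 2, 93 without HoipA-KO HFD 3 and 73 without WT HFD 1. Without HoipA-KO HFD 2, HoipA-KO HFD 1 or WT HFD 3 the numbers were 50, 28 and 9, and with all 12 libraries 82 lost it. At 30513446 counts in the smallest library, 3 counts are 0.0983 CPM, which limits Ucp1 and other genes near that level.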
